A study of Mus musculus with 6 samples.

Results

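The genes described here encode the protein subunits of oxidative phosphorylation, the chain of 4 electron-carrying complexes and the ATP synthase in the inner membrane of mitochondria. They were chosen by gene symbol, and no measured value entered the rule, though earlier results of these data were known. The rule took symbols that start with Ndufa, Ndufb, Ndufc, Ndufs, Ndufv, Uqcr or Atp5, or with Cox4 to Cox8. It added the genes Sdha, Sdhb, Sdhc, Sdhd, Cyc1 and Cycs and left out the Ndufaf assembly factors. This gave 88 of 22349 genes with a symbol, measured by 118 of 25917 named probe sets, and each gene was read from its probe set with the highest mean. By complex there were 36 genes of complex I, 4 of complex II, 9 of complex III, the gene of somatic cytochrome c, 19 of complex IV and 15 of complex V. The other 4 matched the symbol rule without being subunits. They were Cox4nb, now Emc8, a subunit of the endoplasmic reticulum membrane complex, Cox7a2l, a factor that joins respiratory complexes into supercomplexes, and Atp5s and Atp5sl, now Dmac2l and Dmac2.

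Expression was measured on Affymetrix arrays as log2 values in mesenchymal stromal cells, adherent cells grown out of mouse bone marrow, with 3 tetraploid and 3 diploid samples and 1 array each. Among the tetraploid samples, I came from a primary culture, II from an established line, and III from a clone that was made tetraploid artificially. Among the diploid samples, I came from a clone, while II and III came from primary cultures. All 6 had been grown in the same kind of commercial stem cell medium and assigned to ploidy classes by propidium iodide staining of DNA and by spectral karyotyping, per the labels. No strain, age, sex or treatment is given there, and nothing says whether the cultures came from separate animals, so p-values reflect only how these 6 cultures vary, which may be technical. Stromal markers were present, with Col1a1 between 11.24 and 13.01 and Pdgfrb between 9.07 and 11.38 on the 6 arrays. Nt5e, however, lay below the array median on 3 arrays and Thy1 on 2. In tetraploid II Thy1 was at 3.96 and Eng at 3.80, where Eng was between 8.80 and 10.78 on the other arrays. Of the haematopoietic markers, Ptprc lay between 3.72 and 4.25, below the median of every array, while Cd68 was at 7.97 in tetraploid II and at most 4.96 elsewhere. Diploid III stood apart from the other arrays, with an interquartile range of 2.75 against 3.16 to 3.24. The endothelial marker Cdh5 was at 11.03 in it, against 3.70 to 3.79 elsewhere. Of the 10 endothelial markers, 6 were below the median of every array, Pecam1, Kdr and Tek among them.

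Electrons from NADH enter the chain at complex I and those from succinate at complex II. They pass through ubiquinone to complex III, through cytochrome c to complex IV and on to oxygen, while complexes I, III and IV pump protons that drive the ATP synthase, complex V. A few subunits are encoded in mitochondrial DNA and all those described here in the nucleus, so that both genomes supply complexes I, III, IV and V. Stromal progenitors of the marrow are known to rely strongly on glycolysis while they proliferate and to raise respiration when they mature into bone or fat cells.

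Nuclear genes of the respiratory chain are known for short motifs near their starts that bind NRF1, the ETS factor GABP and YY1, so the promoters were read for these letters. RefSeq promoter windows, from 250 bases before to 50 bases after the gene's start (build GRCm38.p6), were held for 71 of the 88 genes. The letters searched, on both strands, were GCGCATGC for NRF1, CCGGAAG for ETS factors and AAGATGGCG for YY1. NRF1 letters stood in 11 genes, 15.5% of those with a window, against 4.24% of 14322 genes with a window and a probe set on the array. ETS letters stood in 16 genes (22.5% against 13.2%) and YY1 letters in 8 (11.3% against 2.28%). The median GC content of the windows was 57.7% in the members and 57.3% in the genes on the array. At least 1 of the 3 motifs stood in 12 of 32 complex I genes, 2 of 3 of complex II, 3 of 5 of complex III, 3 of 13 of complex IV and 7 of 14 of complex V. A match is a description of the letters and not a measured binding site. The 11 stretches with NRF1 letters are shown because NRF1 is named for its part in the control of respiratory genes, each on the gene's own strand from 5′ to 3′, with the NRF1 letters or their reverse complement in capitals. Where 10 letters are in capitals, the motif and its reverse complement overlap.
Atp5g2 (chr15:102671070-102671099, minus strand): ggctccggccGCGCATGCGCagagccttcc
Atp5k (chr5:108434430-108434459, minus strand): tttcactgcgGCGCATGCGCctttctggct
Atp5l (chr9:44920965-44920992, minus strand): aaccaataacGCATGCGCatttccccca
Cox6a1 (chr5:115349101-115349130, minus strand): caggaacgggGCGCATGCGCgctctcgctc
Cycs (chr6:50566612-50566639, minus strand): atgctagctcGCATGCGCgcgcacaaac
Ndufa11 (chr17:56717692-56717721, plus strand): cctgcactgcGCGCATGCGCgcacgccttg
Ndufa6 (chr15:82354357-82354384, minus strand): ccgcggtagaGCATGCGCattgcagagc
Ndufa8 (chr2:36049329-36049356, minus strand): cgctggagacGCATGCGCagatggtacc
Sdhb (chr4:140961207-140961234, plus strand): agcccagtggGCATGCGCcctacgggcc
Uqcr11 (chr10:80406808-80406835, minus strand): tcgccttcacGCATGCGCtatacgtctg
Uqcrc1 (chr9:108936668-108936697, plus strand): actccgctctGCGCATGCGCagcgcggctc

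Complex II was the only complex in which every gene had a higher tetraploid mean, and the upstream 250 bases of Sdhb and Sdhd are shown as its examples. Capitals mark the NRF1 letters in Sdhb and the ETS letters in Sdhd, both as the reverse complement.
Sdhb (chr4:140961021-140961270, plus strand): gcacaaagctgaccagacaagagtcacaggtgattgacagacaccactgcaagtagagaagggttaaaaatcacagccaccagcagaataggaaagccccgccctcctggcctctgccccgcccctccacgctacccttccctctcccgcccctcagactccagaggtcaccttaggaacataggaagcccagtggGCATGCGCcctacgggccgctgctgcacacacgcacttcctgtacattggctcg
Sdhd (chr9:50603850-50604099, minus strand): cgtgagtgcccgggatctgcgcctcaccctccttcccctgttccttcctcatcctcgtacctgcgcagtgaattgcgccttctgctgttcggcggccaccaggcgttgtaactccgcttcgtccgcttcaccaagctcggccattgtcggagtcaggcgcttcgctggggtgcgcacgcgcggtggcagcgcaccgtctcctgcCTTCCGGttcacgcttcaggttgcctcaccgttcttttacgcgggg

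Across the genes, the tetraploid and diploid cultures did not separate. None of the 88 passed an adjusted p under 0.05 (limma, Benjamini-Hochberg over all named probe sets), with adjusted p-values from 0.876 to 0.999. Over all 22349 genes the share called was 0% as well. At an unadjusted p under 0.05, 1 gene was higher in tetraploid cells, Sdhc of complex II, where 2.96% of all genes were called higher, and 1 was lower, Atp5o of complex V, where 2.14% were called lower. Both shares, 1.14% of the members each, lay below the background. The log2 difference, tetraploid minus diploid, ran from -0.53 for Atp5o to 0.63 for Ndufa5. The count of 2 depended on single arrays, being 9 without tetraploid III, 8 without diploid III and 1 without diploid I. The share of all genes called in these refits is not given here, so these counts show only that the number was unstable. It was 0 with origin as a covariate, with a filter on probe sets of mean under 5, with intensity trend and robust variances and with an ordinary linear model, so that neither call held there. In the authors' deposited table no member had a p under 0.05.

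Most differences were small and somewhat more of them were positive. The tetraploid mean was the higher one in 56 genes and the lower one in 32, with a median difference of 0.077, against a median of -0.048 over all genes. Without diploid III the median of the members was -0.027, and without tetraploid II and diploid III together it was -0.061. Since many genes on an array are near the lower end of the scale, genes with a mean of at least 8 give a closer comparison. Of the 62 members above that level 61.3% had a higher tetraploid mean, and of all 3951 such genes 57.2% did, with a median difference of 0.068. The 3 tetraploid values all lay above the 3 diploid values in 2 members, Sdhc and Sdhd, against 4.83% of all genes. They all lay below in 3 members, Ndufs3, Ndufa11 and Atp5o, against 7.2% of all genes. Among genes with a mean of at least 8 the share above was 3.23% of the members and 9.29% of all genes, and the share below 4.84% and 4.07%.

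**Figure D1:**
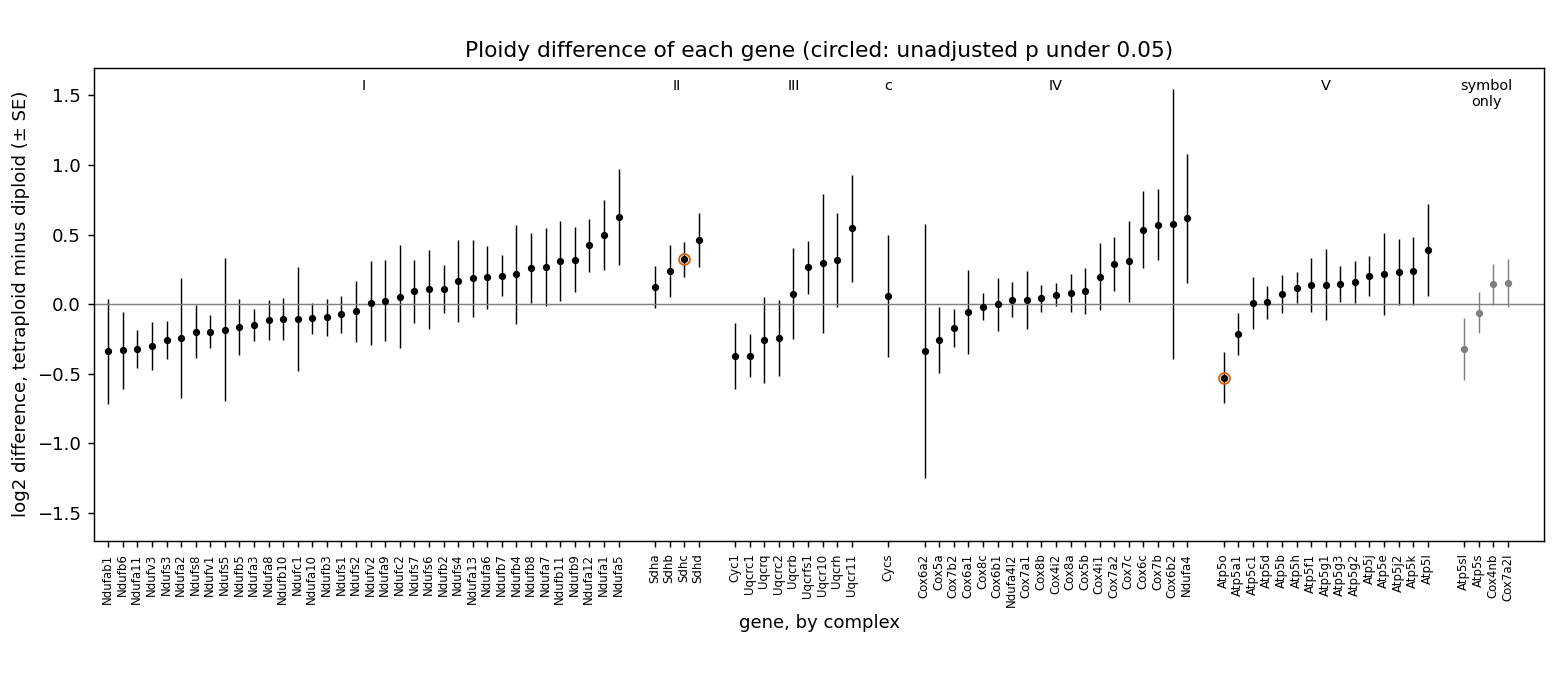
Log2 difference in expression, tetraploid minus diploid, of each of the 88 genes (points, 3 arrays per group; bars are the standard error of the fit), ordered within complexes I, II, III, cytochrome c, IV and V and the 4 genes matched by symbol only. Points spread on both sides of 0 between -0.53 and 0.63, and the circled genes, Sdhc and Atp5o, have an unadjusted p under 0.05.

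Complex I, the NADH dehydrogenase, showed no common direction, with 18 of its 36 genes higher and 18 lower in the tetraploid mean and a median difference of -0.02. Its 7 nuclear core subunits, which carry the flavin and iron-sulfur centres, were lower in 5 and higher in 2, with a median of -0.07. The 29 accessory subunits, which stabilise the complex, were higher in 16 and lower in 13, with a median of 0.05. No gene of complex I had an unadjusted p under 0.05.

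Ndufs3, a core subunit of the arm that faces the matrix, measured 10.03, 10.41 and 10.40 in tetraploid I, II and III and 10.54, 10.45 and 10.63 in diploid I, II and III. The tetraploid values all lay below the diploid ones, with tetraploid II and diploid II closest, and the difference was -0.26 (SE 0.14, unadjusted p = 0.109, limma). Ndufa11, an accessory subunit of the membrane arm, also separated, with 7.78, 7.73 and 8.03 against 8.10, 8.06 and 8.36. Its difference was -0.32 (SE 0.14, unadjusted p = 0.0592, limma). On its second probe set the groups overlapped, with 7.86, 7.54 and 7.84 against 7.90, 7.83 and 8.19. The difference there was -0.22 (SE 0.15, unadjusted p = 0.189, limma). In both genes the highest value was that of diploid III, the array that was lowest in 20 of the 36 genes of complex I.

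3 accessory subunits of complex I lay the other way. Ndufa12 measured 8.80, 8.74 and 8.28 in the tetraploid samples and 8.39, 8.20 and 7.96 in the diploid samples, a difference of 0.42 (SE 0.19, unadjusted p = 0.0719, limma). Ndufa1, a small membrane subunit encoded on the X chromosome, measured 7.87, 7.85 and 7.13 against 7.36, 7.17 and 6.85. Ndufa5, of the matrix arm, measured 7.82, 7.85 and 7.32 against 7.73, 6.84 and 6.54. In all 3 genes tetraploid I and II were higher than the diploid samples, while tetraploid III lay among them. Ndufb11, another X-linked accessory subunit, measured 9.67, 9.33 and 8.99 against 9.35, 9.21 and 8.50, with overlapping groups and a difference of 0.31 (SE 0.29). The differences of Ndufa1 and Ndufa5 were 0.50 (SE 0.25) and 0.63 (SE 0.34), with unadjusted p-values of 0.101 and 0.122 (limma).

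Within complex I, 2 diploid cultures held most of the extreme values. Diploid I, the diploid clone, held the highest value in 18 of the 36 genes and the lowest in 0. Diploid III held the lowest value in 20 and tetraploid III the highest in 0. After each gene was centred on its own mean, the median over complex I was 0.229 in diploid I and -0.343 in diploid III, with the tetraploid arrays between -0.084 and 0.032. Over all genes with a mean of at least 8 it was 0.093 in diploid I and -0.261 in diploid III. Ndufs5, an accessory subunit on the side of the intermembrane space, shows the contrast, with 8.68 and 8.63 in diploid I and II and 7.06 in diploid III. Its tetraploid values of 7.55, 7.78 and 8.49 lay in that span, and the difference between ploidies was -0.18 (SE 0.52). Ndufab1, the mitochondrial acyl carrier protein that is also a complex I subunit, had 9.72 and 9.37 in diploid I and II and 8.43 in diploid III, with 8.44, 8.95 and 9.11 in the tetraploid samples.

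**Figure D2:**
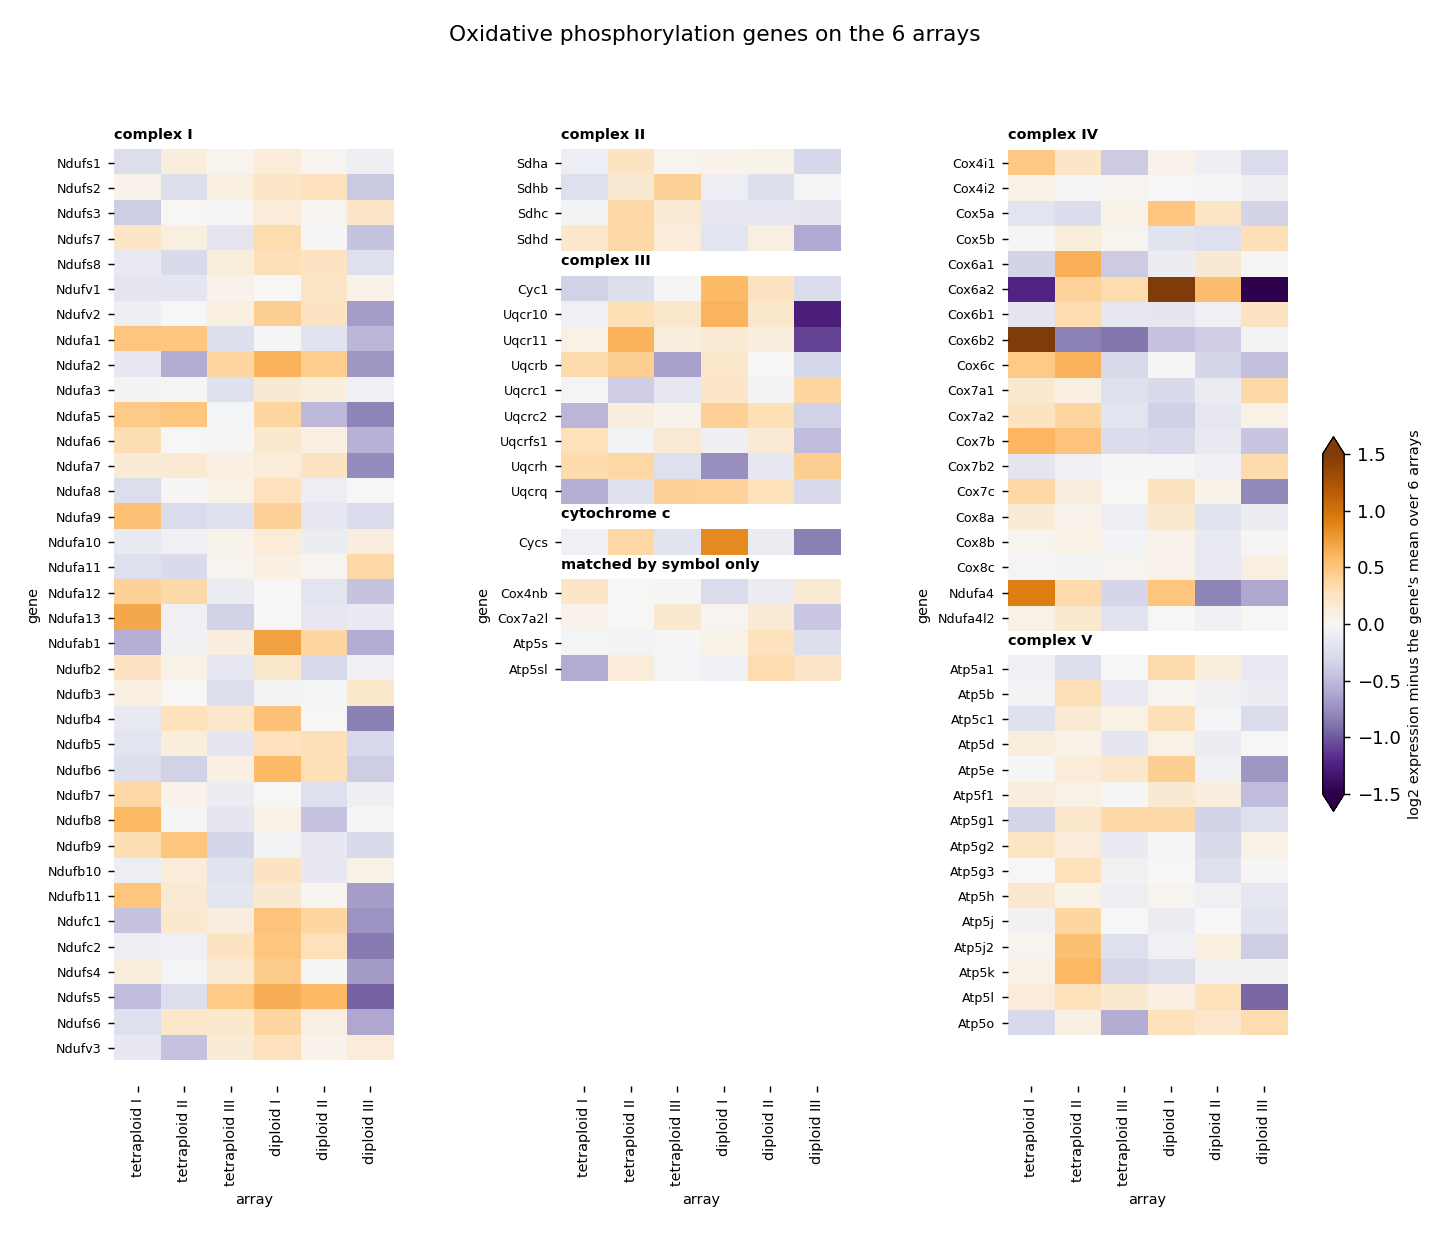
Log2 expression minus the gene's mean over the 6 arrays for the 88 genes (rows, by complex) on each array (columns). The colour scale runs from -1.5 to 1.5, so that Cox6a2 and Cox6b2 exceed it on single arrays. Complex I is mostly above its gene means in diploid I and below them in diploid III, with medians of 0.229 and -0.343.

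Complex II, the succinate dehydrogenase, is the one complex encoded entirely in the nucleus and also an enzyme of the citric acid cycle. All 4 of its genes had a higher tetraploid mean, with a median difference of 0.28. Sdhc, a membrane anchor that holds ubiquinone and heme, measured 8.999, 9.40 and 9.20 in the tetraploid samples and 8.89, 8.87 and 8.87 in the diploid samples. The groups did not overlap, and the difference was 0.32 (SE 0.12, unadjusted p = 0.0441, adjusted p = 0.876, limma). The mean of Sdhc was 9.20 ± 0.20 (SD, n = 3) in tetraploid and 8.88 ± 0.01 (SD, n = 3) in diploid cells. The unadjusted p was 0.0183 without tetraploid I and between 0.0789 and 0.119 without any other single array (limma).

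Sdhd, the other membrane anchor, measured 8.95, 9.08 and 8.87 against 8.54, 8.83 and 8.14. The groups again did not overlap, with tetraploid III and diploid II closest, and the difference was 0.46 (SE 0.19, unadjusted p = 0.0583, limma). Diploid III was the lowest array, as it was for many members. Sdhb, the iron-sulfur subunit, measured 7.96, 8.37 and 8.61 against 8.11, 7.95 and 8.16, so that tetraploid I lay among the diploid samples. Sdha, the flavoprotein that oxidises succinate, measured 10.15, 10.47 and 10.27 against 10.29, 10.31 and 9.93, with groups that overlapped. The differences of Sdhb and Sdha were 0.24 (SE 0.18) and 0.12 (SE 0.15), with unadjusted p-values of 0.248 and 0.457 (limma). Without tetraploid II and diploid III together, the 2 arrays that stood apart in earlier results, the difference of Sdha was -0.09, while Sdhb, Sdhc and Sdhd kept their sign under every alternative run.

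Complex III, the cytochrome bc1 complex, had 5 genes with a higher and 4 with a lower tetraploid mean and a median difference of 0.08. That median rested on diploid III, since it was -0.26 without that array. Uqcrc1, a core protein on the matrix side, measured 10.38, 10.04 and 10.25 in the tetraploid samples and 10.63, 10.37 and 10.78 in the diploid samples. Only tetraploid I and diploid II overlapped, and the difference was -0.37 (SE 0.15, unadjusted p = 0.0560, limma). Cyc1, the cytochrome c1 that hands electrons on, was lower as well, with 9.32, 9.43 and 9.69 against 10.25, 9.90 and 9.41 and a difference of -0.37 (SE 0.24).

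The small subunits of complex III varied most. Uqcr11 measured 7.24, 7.80 and 7.29 in the tetraploid samples and 7.33, 7.28 and 6.09 in the diploid samples. Its difference of 0.55 (SE 0.38) was 0.14 without diploid III, its lowest array. Its second probe set gave 6.63, 7.26 and 6.83 against 6.52, 6.57 and 5.604, without overlap, and a difference of 0.67 (SE 0.32, unadjusted p = 0.0820, limma). Uqcr10 was also lowest in diploid III, at 6.26 against 7.46 to 8.14 on the other 5 arrays. Uqcrh, the hinge protein near cytochrome c1, ran the other way within the diploid group, with 7.97, 8.54 and 9.13 in diploid I, II and III and 9.05, 9.07 and 8.48 in the tetraploid samples. Uqcrfs1, the Rieske iron-sulfur protein, differed by 0.27 (SE 0.19).

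Cycs, which encodes the cytochrome c that carries electrons between complexes III and IV and can trigger apoptosis once released, measured 9.61, 10.03 and 9.47 in the tetraploid samples. Its diploid values were 10.52, 9.56 and 8.85, so the diploid group alone spanned the whole range of 1.67. The difference was 0.06 (SE 0.44, unadjusted p = 0.898, limma). Its 3 probe sets did not share a sign, with differences from -0.12 to 0.21. The probe set of negative sign lay between 3.50 and 4.06, below the median of every array. The brighter probe sets shared a sign, with differences of 0.06 and 0.21. Cycs was the only one of 22 members with several probe sets whose signs differed. Several probe sets of a gene can also read near-identical copies in the genome, such as processed pseudogenes, and the values of these 22 genes are uncertain to that extent.

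Complex IV, cytochrome c oxidase, had 13 genes higher and 6 lower in the tetraploid mean, with a median difference of 0.07. That count includes 7 genes with a mean under 5. Of the 12 genes with a mean of at least 5, 8 were higher and 4 lower, with a median difference of 0.15. Complex IV also holds the pairs of isoforms that differ between tissues. Most of the restricted ones were at the lower end of the scale in the stromal cultures. Cox4i2, the lung- and hypoxia-linked partner of Cox4i1, lay between 3.98 and 4.14 on all 6 arrays. Cox7a1, the heart and muscle partner of Cox7a2, lay between 3.93 and 4.56. Cox8b, of heart and muscle, and the testis isoforms Cox8c and Cox7b2 lay between 3.50 and 4.64. Ndufa4l2, the hypoxia-induced relative of Ndufa4, lay between 4.08 and 4.47. These 6 genes were below the median of every array, whereas the widespread Cox4i1, Cox6a1, Cox6b1, Cox6c, Cox7a2, Cox7b, Cox8a and Ndufa4 were above it on every array. A level so close to the lower end of the scale gives little room for a difference to be seen.

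The other isoforms of restricted tissues differed between single cultures and not between ploidies. Cox6a2, the heart and muscle partner of Cox6a1, measured 4.68, 6.29 and 6.22 in the tetraploid samples and 7.46, 6.45 and 4.29 in the diploid samples. It was thus highest in the diploid clone and low in the primary cultures tetraploid I and diploid III, and its ploidy difference was -0.34 (SE 0.91). The 10 markers of striated muscle had means between 4.33 and 4.60 on the 6 arrays, highest in diploid I, and 5 of the 10, Myod1 and Myog among them, were below the median of every array. Tnnt3 and Tnnt2 were highest in diploid I, at 5.31 and 4.76, and Acta1 and Actc1 lay between 4.98 and 5.89. Their part in the Cox6a2 values was not tested. Cox6b2, the testis partner of Cox6b1, measured 7.20 in tetraploid I and between 3.78 and 4.62 on the other 5 arrays. The widespread partner Cox6a1 lay between 9.32 and 10.36 and Cox6b1 between 9.22 and 9.71, and their differences were -0.05 (SE 0.30) and 0.00 (SE 0.19).

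Several widespread subunits of complex IV, namely Cox7b, Cox6c, Cox7a2 and Cox4i1, were highest in tetraploid I and II. Cox5a, Cox5b, Cox6a1, Cox6b1, Cox7c, Cox8a and Ndufa4 did not share this order. Nor was the order particular to these genes. Tetraploid I and II were the top pair of arrays in 17.0% of the members and in 15.1% of all genes with a mean of at least 8. Cox7b, an X-linked subunit, measured 10.37, 10.28 and 9.50 against 9.47, 9.62 and 9.34, a difference of 0.57 (SE 0.26, unadjusted p = 0.0710, limma). Its second probe set gave 9.15, 9.18 and 8.59 against 8.54, 8.58 and 8.01, without overlap, and a difference of 0.60 (SE 0.24, unadjusted p = 0.0491, limma). Cox6c measured 11.63, 11.79 and 10.87 against 11.14, 10.84 and 10.70, a difference of 0.53 (SE 0.28, unadjusted p = 0.104, limma). Cox7a2 measured 9.18, 9.32 and 8.75 against 8.58, 8.78 and 9.02, and differed by 0.29 (SE 0.20). On the probe sets used for these 3 genes tetraploid III, the clone made tetraploid artificially, lay within the diploid range, and on the second of Cox7b just above it. Ndufa4, first counted with complex I and now placed in complex IV, measured 11.15, 10.56 and 9.90 against 10.72, 9.43 and 9.61. Its difference of 0.62 (SE 0.46, unadjusted p = 0.237, limma) was among the largest, and so was its spread. Cox4i1 differed by 0.20 (SE 0.24) and Cox8a by 0.08 (SE 0.14).

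**Figure D3:**
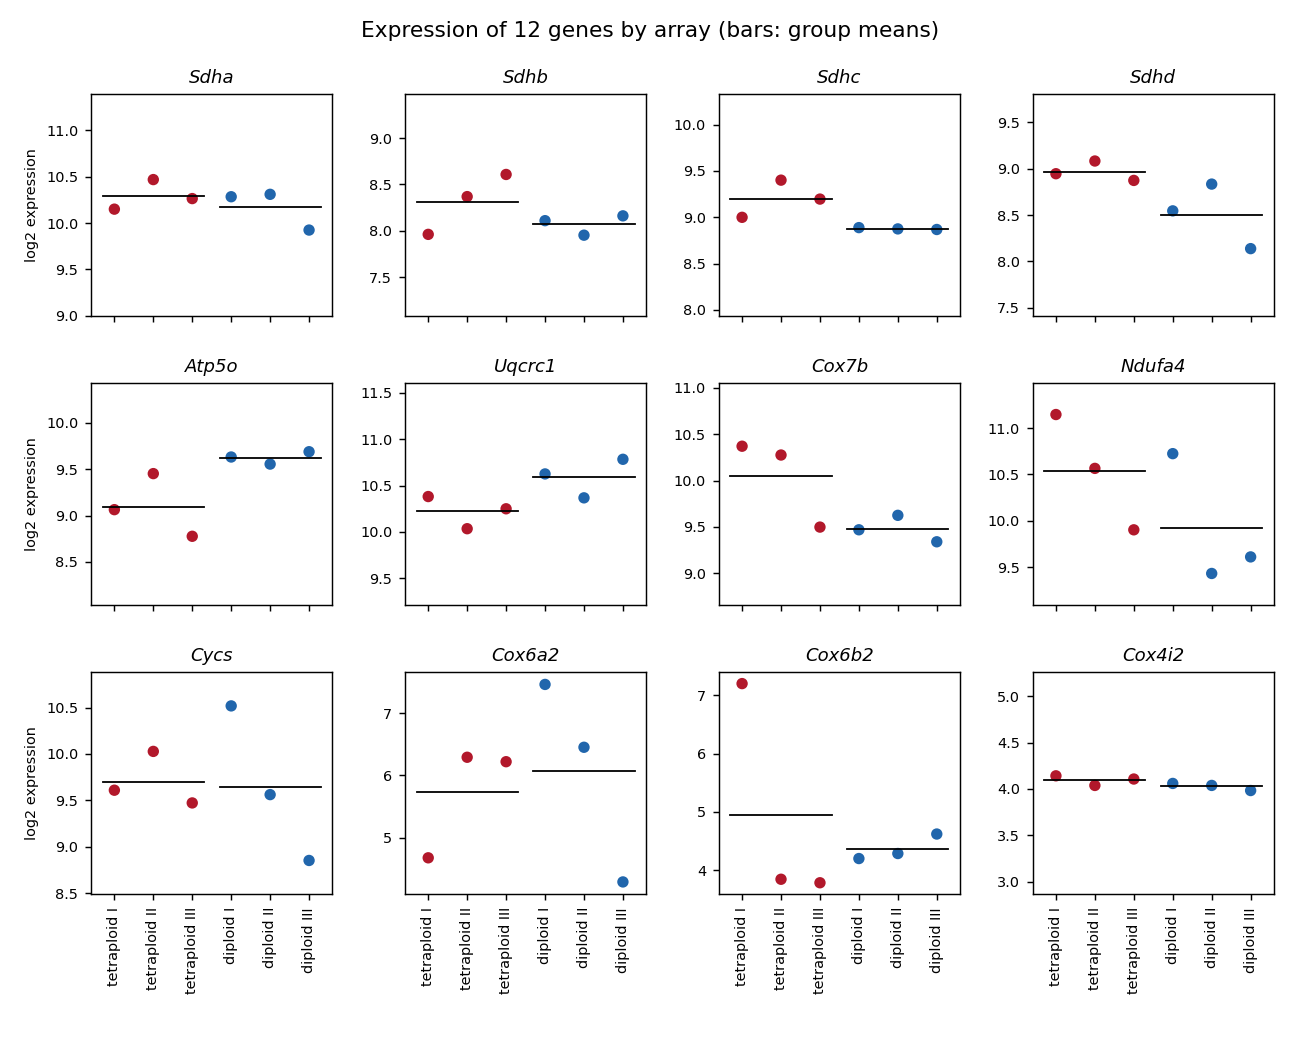
Log2 expression of 12 genes on each array (points, red for tetraploid and blue for diploid; bars are group means of 3 arrays), each panel with its own axis spanning at least 2 log2 units. Sdhc and Sdhd separate upward and Atp5o downward in the tetraploid samples, while Cox6b2 is high in tetraploid I alone, Cycs and Cox6a2 vary within both groups and Cox4i2 stays between 3.98 and 4.14.

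Complex V, the ATP synthase, had 13 genes higher and 2 lower in the tetraploid mean, with a median difference of 0.14, but it also held the member with the smallest p. Atp5o, the stalk subunit that confers sensitivity to oligomycin, measured 9.06, 9.45 and 8.78 in the tetraploid samples and 9.63, 9.56 and 9.69 in the diploid samples. The groups did not overlap, and the difference was -0.53 (SE 0.19, unadjusted p = 0.0319, adjusted p = 0.876, limma). The tetraploid mean was 9.10 ± 0.34 (SD, n = 3) and the diploid mean 9.63 ± 0.07 (SD, n = 3). The sign held under every alternative run, between -0.71 and -0.37, with an unadjusted p of 0.00453 without tetraploid II and between 0.0619 and 0.0816 without any other single array (limma). Atp5a1, the catalytic head's alpha subunit, was the other gene with a lower tetraploid mean, at -0.21 (SE 0.15).

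The positive differences in complex V were small. Atp5j, the coupling factor 6 of the stalk, measured 10.80, 11.22 and 10.84 against 10.76, 10.85 and 10.65, a difference of 0.20 (SE 0.14). Atp5l, subunit g of the membrane part, measured 9.19, 9.33 and 9.23 against 9.14, 9.33 and 8.11, so that its difference of 0.39 (SE 0.33) came with 1 low array, and it was 0.02 without diploid III. The genes Atp5g1, Atp5g2 and Atp5g3 encode the same mature c subunit of the rotor with different import sequences, and differed by 0.14 (SE 0.26), 0.16 (SE 0.15) and 0.14 (SE 0.13). Without tetraploid II and diploid III together, the median over complex V was -0.023. The 4 genes matched by symbol only differed by 0.14 (Cox4nb, SE 0.15), 0.15 (Cox7a2l, SE 0.17), -0.06 (Atp5s, SE 0.15) and -0.32 (Atp5sl, SE 0.22), with overlapping groups.

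Diploid III was the lowest array for 42 of the 88 genes, 47.7%, and diploid I the highest for 30, 34.1%. Among members with a mean of at least 8, diploid III was lowest in 31 of 62, where it was lowest in 44.3% of all genes at that level. Diploid I was highest in 40.3% of these members and in 25.8% of all genes at that level. Beside its narrower spread and its high Cdh5 value, diploid III had Flt1 at 7.32 against 3.89 to 4.45 elsewhere, while Kdr and Tek were at 3.63. In all, 6 of the 10 endothelial markers were below the median on all arrays, and the mean of the list was 5.15 in diploid III against 3.83 to 3.90 elsewhere. Their part in the low values was not tested, and in a bulk sample fewer cells of a type and less RNA per cell cannot be told apart. After quantile normalisation diploid III was still the array most often lowest, in 27 of the 88 genes, and in 30.0% of all genes with a mean of at least 8. The median of all 88 centred genes in diploid III was -0.253 as deposited and -0.098 after it. Diploid I had the highest mean of the 6 proliferation markers, 8.19 against 6.59 to 7.71, whose part in its high values was not tested either. The markers also differed along ploidy, with list means of 7.46, 6.59 and 6.92 in tetraploid I, II and III and 8.19, 7.71 and 7.47 in diploid I, II and III. In 5 of the 6 the tetraploid mean was lower, with a median difference of -0.85. An unadjusted p under 0.05 (limma) was reached by 2, 33.3%, against 2.14% of all genes called lower. Their part in the ploidy differences of the members was not tested.

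**Figure D4:**
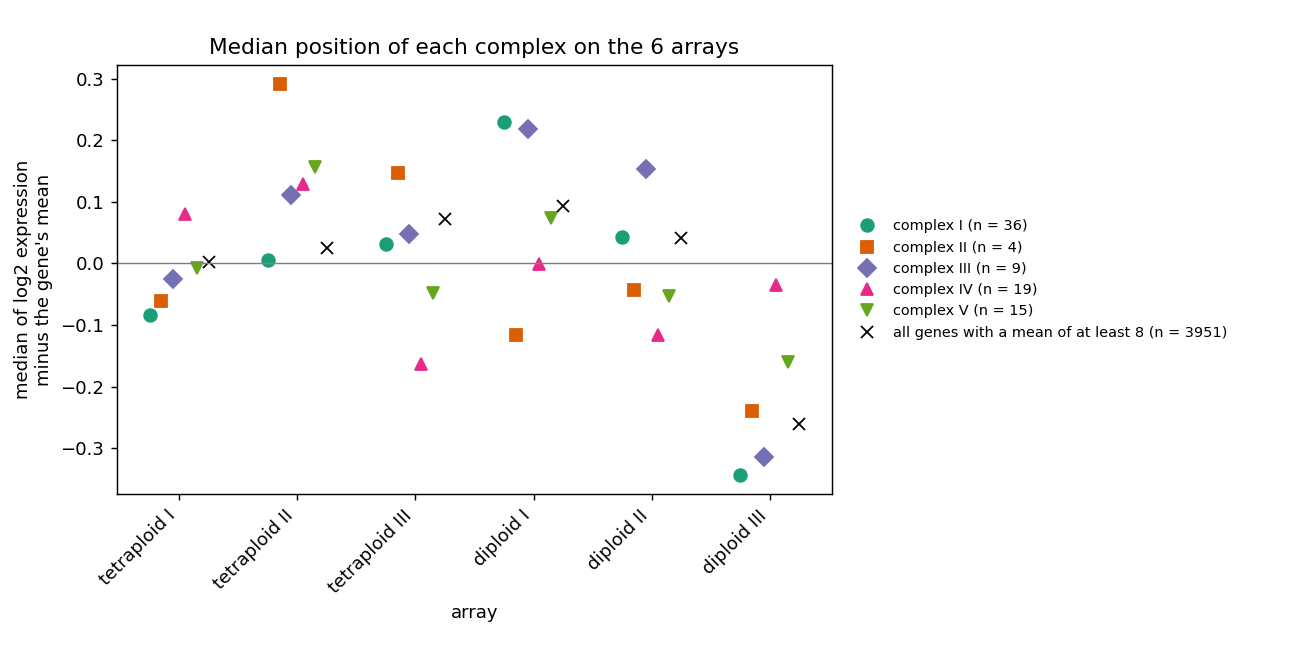
Median over the genes of each complex (coloured symbols) and over all genes with a mean of at least 8 (crosses) of log2 expression minus the gene's mean, on each of the 6 arrays. Complexes I and III are highest in diploid I and lowest in diploid III, and complex II is highest in tetraploid II. Complex IV, with all 19 genes, is lowest in tetraploid III. Over its 12 genes with a mean of at least 5, not drawn, it was lowest in diploid III, at -0.297 against -0.177 in tetraploid III.

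The origin of the cultures was the second factor in the labels. With ploidy in the model, 59 of the 88 genes had a higher mean in the lines and clones than in the primary cultures, with a median difference of 0.11, and the median of all genes with a mean of at least 8 was 0.12. An unadjusted p under 0.05 was reached by 4 members, 4.55%, against 3.43% of all genes, and all 4 were higher in lines and clones. Among genes with a mean of at least 8 the share was 4.84% of the members and 6.02% of all genes. Atp5g1 had the smallest p. Its values were 8.56, 8.71 and 8.72 in the 3 lines and clones and 8.06, 8.03 and 8.16 in the 3 primary cultures, without overlap, and the difference was 0.60 (SE 0.11, unadjusted p = 0.00356, limma). The others were Cox6a2 at 1.83 (SE 0.63), Atp5c1, the central stalk of the synthase, at 0.38 (SE 0.12), and Ndufa8, an accessory subunit of complex I, at 0.30 (SE 0.10). The count was 1 without tetraploid III, 2 without tetraploid II, 7 without diploid II and 8 without diploid III. The share of all genes in these refits is not given here. None passed the adjusted threshold, the smallest adjusted p being 0.99995.

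The question of a different ploidy effect in the 2 origins was put to a model with 1 mean per ploidy and origin, where tetraploid I and diploid I each stood alone and are assumed to vary like the other cultures. An unadjusted p under 0.05 for the difference between origins was reached by 5 members, 5.68%, against 2.87% of all genes. Among genes with a mean of at least 8 the share was 3.23% of the members and 3.59% of all genes. Each ploidy difference within an origin has an arm of 1 culture, so that the values below restate tetraploid I or diploid I. Cox6b2 led, with a tetraploid excess of 2.75 in primary cultures and a difference of -0.39 in lines and clones. Ndufa4 differed by 1.63 and -0.49 and Ndufa9, an accessory subunit at the joint of the 2 arms of complex I, by 0.75 and -0.65. Ndufa13 and Atp5sl were the other genes, and the smallest adjusted p was 0.99984. The count was 14 without diploid II and 3 without tetraploid II or tetraploid III.

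Complex I was counted in each origin. In lines and clones, where tetraploid II and III are set against the diploid clone alone, 33 of its 36 genes were lower in the tetraploid samples, 91.7%, including all 7 core subunits, with a median of -0.23. Among all genes with a mean of at least 8 the share lower was 54.7%. In primary cultures 19 of the 36 were higher in tetraploid I than in the mean of diploid II and III, with a median of 0.08. The 4 genes of complex II were higher in the tetraploid samples of lines and clones, and 3 of them in primary cultures. The first of these patterns rests on a single diploid array, the one in which complex I was highest, and no test was made of it as a group.

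Other genes of the pathway were read from 6 further lists. Of the 13 subunits encoded in mitochondrial DNA 8 had a probe set, and all 8 had a higher tetraploid mean, with a median difference of 0.24 and 0 with an unadjusted p under 0.05. COX2 of complex IV measured 13.48, 13.64 and 13.12 in the tetraploid samples and 13.04, 13.27 and 12.92 in the diploid samples, and ATP6 of complex V differed by 0.32 (SE 0.16, unadjusted p = 0.0970, limma). ND1 of complex I differed by 0.26 (SE 0.15, unadjusted p = 0.130, limma). The largest difference of the list was that of ND3, also of complex I, at 0.58 (SE 0.34), with diploid III at 11.59 against 12.44 to 13.03 elsewhere. Tetraploid I and II were the 2 highest arrays for all 8 transcripts. The groups overlapped in all 8, since tetraploid III, the artificial tetraploid clone, lay within or below the diploid range. These values lie close to the top of the scale of the arrays.

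Among 41 of 44 assembly factors measured, 20 were higher and 21 lower in the tetraploid mean, with 2 and 1 at an unadjusted p under 0.05. These calls were 4.88% and 2.44% of the list, against 2.96% and 2.14% of all genes. The file's Fam36a, now Cox20, a chaperone of the complex IV subunit COX2, measured 8.81, 9.04 and 8.97 against 8.10, 8.16 and 7.23. Its difference of 1.11 (SE 0.27, unadjusted p = 0.00761, adjusted p = 0.876, limma) exceeded that of any subunit. Surf1, another complex IV factor, differed by 0.50 (unadjusted p = 0.0368, limma), and 4930455C21Rik, now Timmdc1, a factor of complex I assembly, by -0.90 (unadjusted p = 0.0221, limma). Timmdc1 measured 7.20, 7.44 and 8.23 in the tetraploid samples and 8.70, 8.37 and 8.51 in the diploid samples, without overlap.

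The list of inner membrane carriers includes those that bring ADP and phosphate to complex V and take ATP out, and 4 of its 5 genes were higher. Among the 4 was Slc25a42, with a mean of 4.41, below the array median on 4 arrays, and with overlapping groups. Slc25a4, the ADP/ATP carrier of heart and muscle, measured 12.09, 12.09 and 11.90 in the tetraploid samples and 11.32, 11.55 and 11.27 in the diploid samples. The groups did not overlap, and its difference of 0.65 (SE 0.12, unadjusted p = 0.00202, adjusted p = 0.876, limma) had the smallest p of all 6 lists. Slc25a4 was the only gene of the 5 with an unadjusted p under 0.05, 20% of this short list, against 2.96% of all genes called higher. Slc25a3, the phosphate carrier, differed by 0.41 (SE 0.17), and Slc25a31, a testis carrier between 3.68 and 4.05 on all arrays, by -0.18.

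In the citric acid cycle list, which includes pyruvate dehydrogenase, 10 of 16 genes were higher and 6 lower. Pdha1, the X-linked alpha subunit of pyruvate dehydrogenase, measured 10.78, 10.83 and 10.29 against 10.21, 9.99 and 9.84, a difference of 0.62 (SE 0.19, unadjusted p = 0.0179, limma). Sucla2, of succinyl-CoA synthetase, differed by 0.59 (SE 0.27) and Mdh2, the mitochondrial malate dehydrogenase, by -0.41 (SE 0.17). The groups of these 3 genes did not overlap, with tetraploid III and diploid I both at 8.75 for Sucla2. Of the 16 genes, 12.5% separated upward and 6.25% downward, against 9.29% and 4.07% of all genes with a mean of at least 8. Pdha1 alone had an unadjusted p under 0.05, 6.25% of the list, against 6.86% of those genes called higher.

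Of 15 regulators of mitochondrial biogenesis, 7 were higher and 8 lower, with a median of -0.14. The file's Peo1, now Twnk, the helicase that unwinds mitochondrial DNA, measured 5.88, 6.33 and 6.34 in the tetraploid samples and 6.73, 6.75 and 6.71 in the diploid samples. Its difference was -0.55 (SE 0.15, unadjusted p = 0.0122, limma). Twnk was the only gene of the 15 with an unadjusted p under 0.05, 6.67% of the list, against 2.14% of all genes called lower. Polg, the DNA polymerase of mitochondria, and Pprc1, a coactivator, differed by -0.28 and -0.38. The transcripts of the factors whose letters were searched in the promoters did not separate by ploidy, with Nrf1 at -0.15 (SE 0.22), Gabpa at 0.39 (SE 0.28) and Yy1 at 0.19 (SE 0.18). The 11 genes with NRF1 letters had a median difference of 0.16, the 16 with ETS letters 0.21 and the 8 with YY1 letters 0.10, each on the scale where the 88 members had 0.077.

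Of 7 hypoxia-responsive genes that act on respiration, 3 were higher and 4 lower, 0 of them with an unadjusted p under 0.05. Lonp1, a mitochondrial protease, measured 7.75, 8.65 and 9.83 in the tetraploid samples and 10.19, 9.94 and 8.10 in the diploid samples, so that the groups overlapped over most of their span. Bnip3, of mitophagy, differed by -0.52 (SE 0.42) and had its lowest values in tetraploid I and II. The members Cox4i2 and Ndufa4l2, which belong to this list, stayed near the lower end of the scale on every array.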

How the data were processed

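Biotin-labelled RNA of 6 mouse marrow stromal cultures was measured on Affymetrix arrays, 1 each. The authors deposited log2 expression values per probe set, made with RMA (background correction, normalisation across arrays and summary of probes) and Partek, per the submitters' processing notes. The authors' deposited comparison table holds an unadjusted p-value and a signed score per probe set, the fold of diploid over tetraploid, and gave the gene symbols. Its 6 columns of per-sample values matched no sample label and were not used. Its log2 folds of the members differed from those of the deposited values by at most 4.3e-05. The genome build is not given in the sources used here.

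From these values, limma 3.58.1 in R 4.3.3 (lmFit, eBayes) was fitted across 25917 named probe sets, tetraploid minus diploid, two-sided, without covariates or a filter, with Benjamini-Hochberg adjustment over all of them. Shares of all genes are over 22349 genes, each read from its brightest probe set. Array number limits the precision. Symbols were matched to RefSeq (GRCm38.p6), 84 as current and 4 as synonyms. The members and lists were chosen with earlier results of these data known. Genes named were the 5 of smallest unadjusted p per complex, the isoforms of restricted tissues with their partners, the X-linked members and 3 genes per other list. Other genes, such as those of the origin and interaction models, Uqcr10, Ndufs5, Ndufab1 and ND3, were named after their values were seen. The repeat numbers did not pair the samples. The limma step was tested on simulated data. Python 3.11.15 and matplotlib 3.10.9 drew the figures.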

Additional observations from a re-analysis of the deposited data

How the results depend on the processing

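No member passed an adjusted p under 0.05 in any fit run, and the signs of Sdhc, Sdhd and Atp5o held in all of them. The count of members at an unadjusted p under 0.05, 2 as reported, was 0 with a filter on probe sets of mean under 5, with intensity trend and robust variances, with origin as a covariate and with an ordinary linear model, 8 with array weights, and 1 to 9 when 1 array was left out (9 without tetraploid III, 8 without diploid III). The repeat number as a block gave 6. The same numbers did not pair the samples, since the deviations of same-numbered arrays correlated at -0.12, -0.15 and -0.34. Over all probe sets the count at an adjusted p under 0.05 was 0, and 0 to 1 when 1 array was left out. The median of complex III, 0.08 as reported, was -0.18 with array weights, -0.26 without tetraploid II and diploid III together, and -0.26 to 0.25 with 1 array left out. The median of complex V, 0.14, was -0.023 without those 2 arrays. The count for origin, 4, ranged from 1 to 8 and that for the interaction, 5, from 3 to 14 (14 without diploid II) with 1 array left out. The interaction could not be estimated without tetraploid I or diploid I. The share of all genes called in each refit is not given here, so the counts show how far they shift and not whether the members shift more than other genes. The cause of these shifts was not tested. Of 633 values of 40 named members under the alternatives, 597 kept their sign, and 25 of the members kept it throughout. Levels near the lower end of the scale, as in Cox4i2, limit what differences can be seen.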
